A study of Mus musculus with 8 samples.

Results

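The genes described here are 33 type I interferon-stimulated genes (ISGs), chosen by symbol from a list of well-known members of the antiviral response. All 33 were found among the 38115 genes listed for each tumor, and 33 of 33 passed the low-count filters of the tests used below. Their expression was measured by RNA sequencing in 8 Myc-CaP tumors. The Myc-CaP line was derived from a prostate cancer of a Myc-transgenic mouse, and it exists as an androgen sensitive (AS) and a castrate resistant (CR) line. Cells of either line were placed into the anterior prostate of male FVB mice that were either intact or castrated by surgery beforehand. The groups were primary AS, metastatic AS, primary CR and metastatic CR, with 2 tumors in each. Which host, intact or castrated, carried each tumor is not given, and neither are the mouse age, the metastatic site or the primary tumor that each metastasis matches. Tumors are numbered within a group only to name them. The labels do not say that the 2 tumors of a group came from separate mice, so p-values measure the spread between these samples. Since the metastases are labelled as matched, a primary tumor and a metastasis may share a mouse, and the 4 tumors of a phenotype, treated as separate in the tests between phenotypes, may then come from as few as 2 mice, in which case those p-values are too small.

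Type I interferons bind the receptor made of Ifnar1 and Ifnar2, and the kinases Jak1 and Tyk2 then phosphorylate Stat proteins. One of them, Stat2, joins Irf9 in the complex ISGF3, which binds a short promoter element, the interferon-stimulated response element (ISRE). The genes it switches on include sensors of viral RNA, proteins that block viral translation or release, and factors such as Irf7 that amplify the response. In tumors the same genes may be expressed by the cancer cells and by infiltrating cells. Most of them also respond to other interferons.

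Promoter windows of 300 bases (250 before to 50 after the start, from RefSeq, GRCm38.p6) were at hand for 24 of the 33 genes. The core of the ISRE, taken as GAAA, any 2 bases and GAAA again, was searched on both strands with overlapping matches allowed, and was found in 13 of the 24, or 54.2%. Over all 27025 genes with such a window the share was 3.99%. Stretches of 60 bases around the match are printed for 7 genes of several roles, to show where the match sits upstream of the start. They are printed in the direction of the gene, with the matched bases in capitals (runs of TTTC are the core read on the other strand). They lie at chr4:156200850-156200909 (minus strand) for Isg15, chr19:34640779-34640838 (plus) for Ifit1, chr8:71537562-71537621 (minus) for Bst2, and chr5:120777700-120777759 (minus) for Oas3. Those of Rsad2, Stat2 and Gbp2 lie at chr12:26456538-26456597 (minus), chr10:128270251-128270310 (plus) and chr3:142620579-142620638 (plus).
Isg15: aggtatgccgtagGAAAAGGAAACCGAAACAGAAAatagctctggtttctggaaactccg
Ifit1: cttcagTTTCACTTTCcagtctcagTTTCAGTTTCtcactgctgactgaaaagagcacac
Bst2: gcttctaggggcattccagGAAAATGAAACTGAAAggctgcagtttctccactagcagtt
Oas3: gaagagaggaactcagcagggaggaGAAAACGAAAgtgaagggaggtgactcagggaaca
Rsad2: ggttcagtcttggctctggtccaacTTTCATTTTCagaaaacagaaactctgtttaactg
Stat2: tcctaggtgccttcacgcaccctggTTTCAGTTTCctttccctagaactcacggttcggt
Gbp2: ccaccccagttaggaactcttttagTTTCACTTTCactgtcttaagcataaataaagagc
Isg15 held 3 overlapping matches, Ifit1 and Bst2 held 2, and the other 4 held 1. A match is a description of the letters and not a measured binding site.

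Total counts ranged from 61237285 to 91886163 in AS and from 20905806 to 76887592 in CR tumors. Among the 33 ISGs raw counts ran from 10 reads for Cmpk2 in metastatic CR1 to 5269 reads for Eif2ak2. Values below are normalized counts, in which each count was divided by its tumor's effective depth (total times TMM factor) and multiplied by the mean effective depth of the 8 tumors. The identifier numbers in the tumor titles, whose meaning is not given, form 2 separate blocks, one for AS and one for CR tumors, so anything these blocks stand for and phenotype cannot be told apart. The tumors expressed Krt8, a keratin of luminal epithelium, at 2171 to 9907 normalized counts in AS and 15370 to 42561 in CR tumors. The phenotypes did not overlap, but Krt8 did not pass the test between them that is described below (adjusted p = 0.0501, edgeR). Other markers of prostate epithelium, Epcam, Cdh1, Krt18 and Pbsn, were near 0 in every tumor (at most 36 normalized counts).

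Per length, the most abundant of the 33 ISGs was Bst2, which encodes tetherin, a membrane protein that holds budding virus at the cell surface, with a mean of 40.4 CPM per kilobase of exon (CPM is the count relative to the effective depth). It was followed by Ifi35, an interferon-induced protein that binds Nmi, at 13.2, and by Isg15 at 11.3 on the same scale. The lowest levels per length were those of Ifi44, an interferon-induced cytoplasmic protein, at 0.414, and Cmpk2, a mitochondrial nucleotide kinase, at 0.444. The normalized counts of Bst2 were 1859 and 2425 in primary AS1 and AS2, 3039 and 2395 in metastatic AS1 and AS2, 2389.7 and 1269 in primary CR1 and CR2, and 1353 and 2476 in metastatic CR1 and CR2. The phenotypes overlapped, with primary CR2 and metastatic CR1 below all other tumors. Those of Ifi44 were 136 and 181 in primary AS, 256 and 189 in metastatic AS, 65.3 and 31.7 in primary CR, and 46.4 and 292 in metastatic CR tumors, each pair in the order of the tumor numbers. Those of Cmpk2 were 71.4 and 100.2 in primary AS, 136 and 135 in metastatic AS, 37.7 and 54.8 in primary CR, and 17.2 and 320.2 in metastatic CR tumors, in the same order. For both genes 3 CR tumors lay below every AS tumor and metastatic CR2 lay above every AS tumor.

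**Figure D1:**
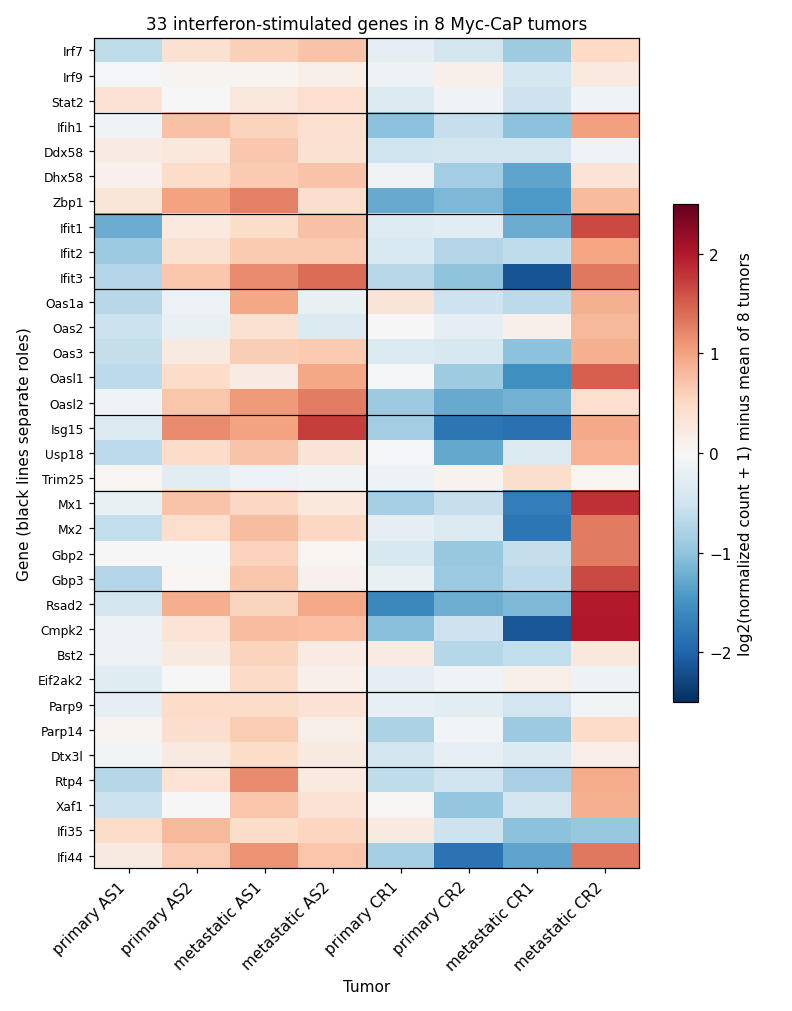
Heat map of the 33 ISGs (one per line, black lines separate roles) in the 8 tumors, colored by log2(normalized count + 1) minus the gene's mean over the 8 tumors. Metastatic CR2 is the highest of the CR tumors for 29 of the 33 genes, and primary AS1 is the lowest of the AS tumors for 30.

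Most of the 33 ISGs varied together from tumor to tumor. For each gene, the log2 level was correlated with the mean level of the other members across the 8 tumors, as a description. All values from 1 tumor share a library and its depth. The median Pearson r was 0.88, and r was above 0.8 for 24 of the 33 genes (72.7%), against 1.61% of the 18856 other genes tested. The highest r was that of Ifit3 (0.98), an antiviral RNA-binding protein of the Ifit family. The lowest were those of Trim25 (-0.64), a ubiquitin ligase that acts on the RIG-I pathway, Ifi35 (0.32), Eif2ak2 (0.33), which encodes the translation-blocking kinase PKR, and Oas2 (0.41), a synthetase of 2-5A. Ifit3 and Oas1a are uncertain, because 67.2% and 69.4% of their read-length stretches are shared, within 2 mismatches, with Ifit3b and Oas1g, respectively.

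Castrate resistant and androgen sensitive tumors were compared first. Of the 33 ISGs, 3 were lower in CR tumors and 0 were higher: Ddx58, Ifi35 and Oasl2 (9.09% of the members, against 5.29% of all 18889 genes called lower, 4.76% called higher and 10.1% in either direction). The test was edgeR's quasi-likelihood test with tumor type as a covariate and a Benjamini-Hochberg adjusted p under 0.05 over all genes. The other 30 did not pass, but 28 of the 33 log2 fold changes were below 0, against 50.0% of all genes. The median over the 33 was -0.36. At an unadjusted p under 0.05, 9 members were lower and 0 higher, against 14.1% and 13.0% of all genes. All CR tumors lay below all AS tumors for 3 members, Ddx58, Ifi35 and Stat2 (9.51% of all genes), and above them for 0 (8.01%). In bulk tissue, fewer cells of a type and less RNA per cell cannot be told apart.

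Among the sensors, Ddx58 encodes RIG-I, which detects viral RNA with a 5′ triphosphate. Its normalized counts were 1879.6 and 1956 in primary AS1 and AS2, 2582 and 2102 in metastatic AS1 and AS2, 1152 and 1185 in primary CR1 and CR2, and 1175 and 1496 in metastatic CR1 and CR2. Every CR tumor lay below every AS tumor, with means of 1252 ± 163 in CR and 2129.9 ± 315 in AS (SD, n = 4). The log2 fold change was -0.76 ± 0.15 (SE), with an adjusted p of 0.0183 by edgeR's quasi-likelihood test. Zbp1, a sensor of Z-form nucleic acids that can trigger cell death, had 141 and 230.2 normalized counts in primary AS, 274 and 153 in metastatic AS, 47.2 and 51.9 in primary CR, and 41.2 and 198 in metastatic CR tumors. Thus 3 CR tumors lay below all AS tumors, while metastatic CR2 lay among them. Its log2 fold change of -1.37 ± 0.49 (SE) did not pass (adjusted p = 0.113, edgeR). Ifih1 (MDA5) and Dhx58 (LGP2), relatives of RIG-I, also had negative values that did not pass, -0.67 and -0.83.

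Ifi35 was the second gene called. Its normalized counts were 1685 and 2143 in primary AS1 and AS2, 1665 and 1773 in metastatic AS1 and AS2, 1418 and 848 in primary CR1 and CR2, and 598 and 631 in metastatic CR1 and CR2. The phenotypes did not overlap, and metastatic CR2 was at the low end here, unlike for most of the other ISGs. Its means were 874 ± 379.7 in CR and 1817 ± 223 in AS (SD, n = 4), with a log2 fold change of -1.116 ± 0.227 (SE) and an adjusted p of 0.0212 (edgeR). Of the exon bases of Ifi35, 16.8% overlap Gm11626 on the opposite strand. The kit kept strand information, but whether the counting used it is not given, so reads of the pair may not be separated.

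Oasl2, a relative of the 2-5A synthetases, was the third. It had 659 and 1148 normalized counts in primary AS1 and AS2, 1479 and 1738 in metastatic AS1 and AS2, 376 and 297 in primary CR1 and CR2, and 313 and 956 in metastatic CR1 and CR2. Only metastatic CR2 reached into the AS range, where it exceeded primary AS1. The means were 485 ± 316 in CR and 1256 ± 466 in AS (SD, n = 4). The log2 fold change was -1.38 ± 0.33 (SE), with an adjusted p of 0.0347 (edgeR). The other 4 members of the family, Oas1a, Oas2, Oas3 and Oasl1, did not pass and had log2 fold changes from -0.34 for Oas3 to 0.35 for Oas2.

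The transcription factors did not pass the test. Stat2, the ISGF3 subunit, had 761 and 593 normalized counts in primary AS, 719.6 and 789.9 in metastatic AS, 459 and 554 in primary CR, and 414 and 552 in metastatic CR tumors. All CR tumors were below all AS tumors, but the log2 fold change of -0.53 ± 0.18 (SE) had an adjusted p of 0.0983 (edgeR). Irf7, which drives the expression of interferon alpha genes, had 350.2 and 708 in primary AS, 823 and 888 in metastatic AS, 467 and 395 in primary CR, and 290.3 and 765 in metastatic CR tumors. The phenotypes overlapped widely (log2 fold change -0.50 ± 0.33, adjusted p = 0.359, edgeR). Irf9 was at -0.09 ± 0.18 (log2 fold change, SE).

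Isg15, a ubiquitin-like protein that is joined to other proteins during the response, had 276 and 807 normalized counts in primary AS1 and AS2, 709.8 and 1181 in metastatic AS1 and AS2, 194 and 100.9 in primary CR1 and CR2, and 96.2 and 686 in metastatic CR1 and CR2. It had the most negative log2 fold change of the 33, -1.56 ± 0.58 (SE), but did not pass (adjusted p = 0.121, edgeR), and metastatic CR2 lay within the AS range. Usp18, which removes Isg15 from proteins, was at -0.34 and Trim25 at 0.23, and neither passed. Parp9, an ADP-ribosyltransferase partner of Dtx3l, had 1850.1 and 3036 in primary AS, 3016 and 2819 in metastatic AS, 1892 and 1822 in primary CR, and 1568 and 2079 in metastatic CR tumors. Primary AS1 lay within the CR range, and the other 3 AS tumors lay above it (log2 fold change -0.54 ± 0.19, adjusted p = 0.105, edgeR). Parp14 and Dtx3l were at -0.57 and -0.41 and did not pass. Parp9 and Dtx3l overlap on opposite strands over 9.4% and 8.0% of their exon bases.

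The remaining groups showed no called gene. Of the Ifit proteins, which bind foreign RNA, Ifit1 was at 0.13, Ifit2 at -0.34 and Ifit3 at -0.92 (log2 fold change). The GTPases ran from -0.25 for Mx2, annotated as a polymorphic pseudogene, to 0.14 for Gbp3, with Mx1 at -0.23 and Gbp2 at -0.17. Rsad2 (viperin), Bst2, Cmpk2 and Eif2ak2 were all below 0, from -0.69 for Rsad2 to -0.16 for Eif2ak2. The genes with the ISRE core in the promoter window had a median log2 fold change of -0.36 (13 genes, 1 called), and those without it -0.34 (11 genes, 2 called).

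**Figure D2:**
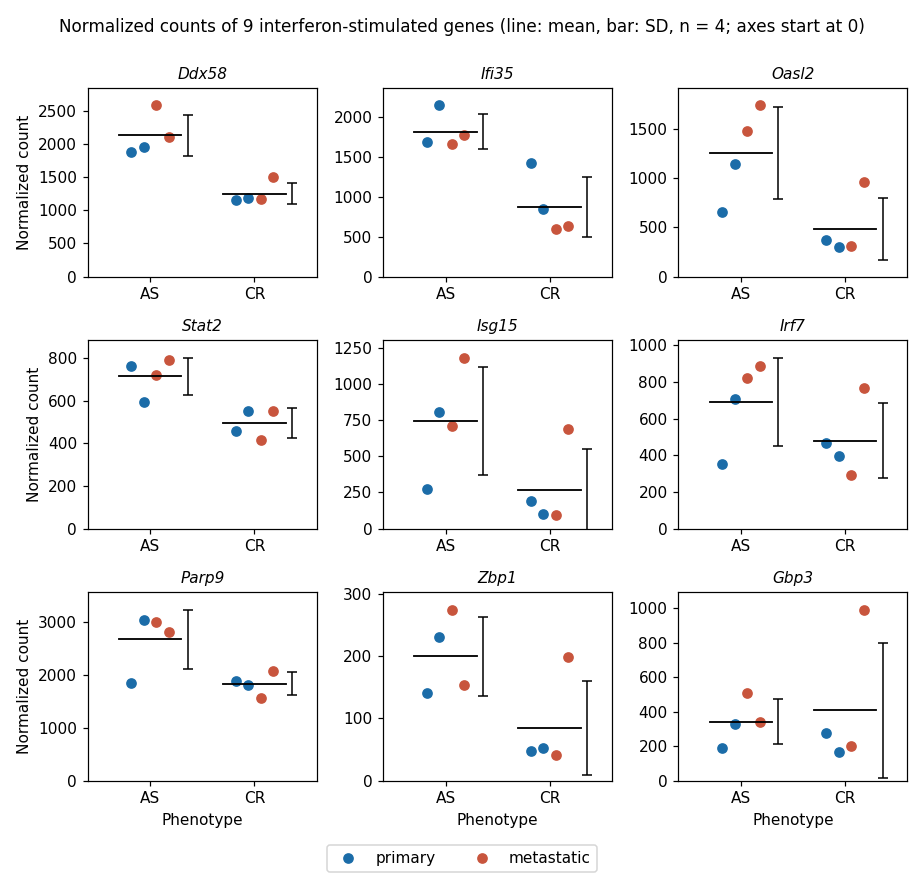
Normalized counts (y axes, from 0) of 9 ISGs in AS and CR tumors, with 1 point per tumor (blue primary, red metastatic), a line at the mean and a bar of 1 SD (n = 4, cut at 0 for Isg15). For Ddx58, Ifi35 and Stat2 the phenotypes do not overlap, and for Oasl2, Isg15, Zbp1 and Gbp3 one metastatic CR tumor lies above the other 3 CR tumors.

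DESeq2 called 5 members lower with all 8 tumors (8.74% of all genes), and edgeR called 8 when no low-count filter was set (5.57%). The number called varied with the tumors included, for the members and for all genes. Without primary AS1 or primary CR1, 3 members were called lower (2.18% and 11.6% of all genes). Without primary CR2 1 was called, Ddx58 (2.25%). Without metastatic AS1, primary AS2, metastatic AS2 or metastatic CR1, 0 were called by edgeR, where at most 1.73% of all genes were called lower, a share close to that of the members. At an unadjusted p under 0.05, 4 to 7 members were lower in these 4 fits, against 9.70% to 11.2% of all genes. The adjusted p over these 8 fits ran from 0.00857 to 0.0797 for Ddx58, from 0.000993 to 0.0756 for Ifi35 and from 0.0222 to 0.107 for Oasl2, and the direction was the same in all 8. The median over the 33 moved to -0.18 without primary AS2, to -0.22 without metastatic CR1 and to -0.79 without metastatic CR2. Within primary tumors alone the median was -0.42 and within metastatic tumors alone it was -0.30, each with 0 members called by edgeR, where 0.132% and 0.228% of all genes were called lower. At an unadjusted p under 0.05, 4 and 5 members were lower, against 6.82% and 11.5% of all genes.

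Metastatic CR2 stood apart from the other CR tumors in these genes, a pattern that was seen in the values before it was counted. It was the highest CR tumor for 29 of the 33 ISGs (24.9% of all genes), the exceptions being Stat2, Trim25, Eif2ak2 and Ifi35. It was the highest of all 8 tumors for 16 (17.7%), and it exceeded 2 times the mean of the other 3 CR tumors for 21 (13.3%). The ratio to that mean had a median of 2.76 over the 33 and 0.927 over all genes, and ran from 0.661 for Ifi35 to 9.80 for Rsad2, whose product viperin makes an antiviral nucleotide. Rsad2 had 72.6, 95.1 and 101.3 normalized counts in primary CR1, primary CR2 and metastatic CR1, and 879 in metastatic CR2, with 163 to 434 in the AS tumors. The ratio was 8.76 for Cmpk2, the neighbor of Rsad2 on chromosome 12, 7.06 for Mx1, 6.10 for Ifi44, 5.64 for Ifit3 and 5.26 for Isg15. By contrast, metastatic CR1 was the lowest of all 8 tumors for 17 ISGs (13.7%), so that the 2 metastatic CR tumors stood at opposite ends. Primary AS1 was the lowest AS tumor for 30 (30.6%).

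Without metastatic CR2, 7 ISGs were lower in CR than in AS tumors by the same test (2.63% of 19732 genes): Zbp1, Oasl2, Ifi44, Ddx58, Rsad2, Ifih1 and Isg15. Their log2 fold changes ran from -0.83 for Ddx58 to -2.38 for Isg15, with adjusted p from 0.0220 for Zbp1 to 0.0450 for Isg15. Ifi35, at -1.05, was then no longer called (adjusted p = 0.0613). DESeq2 on the same 7 tumors called 14 lower (6.83%). The other 3 CR tumors lay below every AS tumor for 15 of the 33 (11.9% of all genes). Since the tumor was left out after its values were seen, these counts are descriptions of the remaining 7 tumors.

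**Figure D3:**
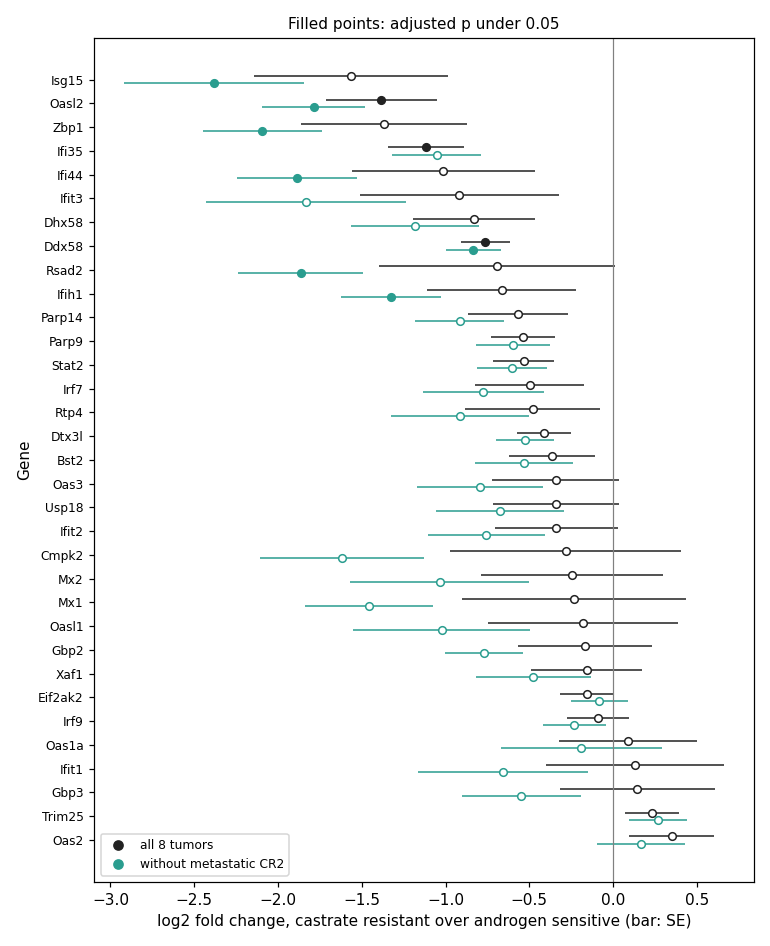
Log2 fold change of CR over AS tumors (x axis, bars are SE) for each of the 33 ISGs (y axis), with all 8 tumors (black) and without metastatic CR2 (green), filled where the adjusted p was under 0.05. With all tumors 3 genes are filled, and without metastatic CR2 7 are filled and the median lies at -0.79 instead of -0.36.

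Marker genes of other cells moved with some of these differences. Metastatic CR2 had the smallest total count of the 8 tumors, 20905806, and the largest TMM factor, 1.18. The summed normalized count of 4 leukocyte markers was 4160.4 there and 2016 to 3145 in the other CR tumors, and in AS tumors it ran from 3064 to 4438. For 9 macrophage markers the sums were 29049, 13448 to 27340.1 and 24247 to 33064. The sum of 10 T and NK cell markers was 182 in metastatic CR2, 42.1 to 109.6 in the other CR and 105 to 198 in the AS tumors, with Cd3e and Cd3d at or near 0 in all. The sum of 6 fibroblast markers was lowest in metastatic CR2, at 2994, against 4993 to 6382 in the other CR tumors. The sum of 5 endothelial markers was 4904 in metastatic CR2 and 2649.6 to 3799.9 in the other CR tumors, and it ran from 2678 to 5532 in AS tumors. Cldn4, an epithelial tight junction gene, had 4418 normalized counts in metastatic CR2 and 201 to 714 in the other 7 tumors. None of the 4 leukocyte, 9 macrophage or 8 tested T and NK cell markers passed the test between phenotypes. Most of their log2 fold changes of CR over AS tumors were below 0, for 3, 8 and 7 markers, with medians of -0.43, -0.35 and -1.15. In the B and plasma cell list 1 of 4 tested genes, Jchain, was lower in CR tumors, and in the hepatocyte list 2 of 3 were lower, Fgb and Ttr, with Alb at 0 to 182 normalized counts in all tumors. The sum of the 5 hepatocyte markers, nearly all of it Fgb, was 219464 to 601749 in AS and 5690 to 114908 in CR tumors. The part of these cells in the ISG differences was not tested.

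**Figure D4:**
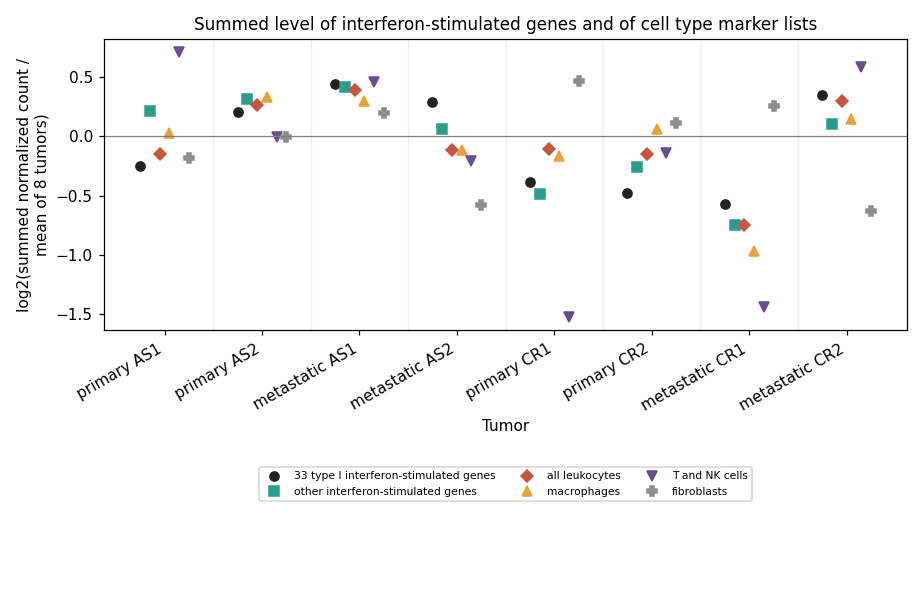
Log2 of the summed normalized count of a gene list over its mean of the 8 tumors (y axis), by tumor (x axis), for the 33 ISGs, 50 other ISGs and 4 marker lists. In metastatic CR2 the points of both ISG lists, leukocytes, macrophages and T and NK cells lie above 0 and that of fibroblasts lies below 0, while in metastatic CR1 all but fibroblasts lie below 0.

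Metastatic and primary tumors were compared next. No member passed the test, nor did any of the 17104 genes (0 called by edgeR and 0 by DESeq2). At an unadjusted p under 0.05, 2 members, Gbp3 and Xaf1, were higher in metastatic tumors (6.06%, against 1.56% of all genes) and 0 were lower (1.12%). DESeq2 gave 5 members at that threshold, all of them higher, where 381 of the 17104 genes were higher and 230 lower. The log2 fold change was above 0 for 32 of the 33 (46.2% of all genes), with Ifi35 at -0.37 as the exception. The median was 0.71, against -0.03 over all genes. For 0 of the 33 did all metastatic tumors lie above all primary tumors (0.905% of all genes). No marker of another cell type passed this test either, and of the endothelial, neutrophil and fibroblast markers 2, Kdr and Col1a2, had an unadjusted p under 0.05 (edgeR). So did Tnnt3 of the skeletal muscle list, with a log2 fold change of 2.64 ± 0.80 (SE, unadjusted p = 0.0086, edgeR). Ttr of the hepatocyte list was lower in metastatic tumors, at -1.49 ± 0.55 (unadjusted p = 0.0237, edgeR). The 5 endothelial markers were all above 0 (median log2 fold change 0.46), with sums of 3322 to 5532 in metastatic and 2649.6 to 3799.9 in primary tumors. Of 4 tested neutrophil markers 3 were above 0 (median 0.42, sums of 938 to 1689 and 631 to 1201), and of 6 fibroblast markers 5 were below 0 (median -0.41, sums of 2994 to 5522 and 4081 to 6382). Leukocyte and macrophage markers had medians of 0.06 and -0.19. The part of these cells in the ISG values was not tested.

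Gbp3, an interferon-induced guanylate-binding GTPase, had 188 and 327 normalized counts in primary AS1 and AS2, 278 and 164 in primary CR1 and CR2, 508 and 341 in metastatic AS1 and AS2, and 201 and 992 in metastatic CR1 and CR2. Metastatic CR1 lay among the primary tumors and the other 3 metastases above them (log2 fold change 1.11 ± 0.47, adjusted p = 0.997, edgeR). Xaf1, which antagonizes the apoptosis inhibitor XIAP, had 235 and 345 in primary AS, 346 and 173 in primary CR, 548 and 437 in metastatic AS, and 247 and 628 in metastatic CR tumors. Its order was the same as that of Gbp3 in this respect, at 0.78 ± 0.34 (adjusted p = 0.997, edgeR). Ifit2, which binds RNA and limits viral translation, had 609 and 1507 in primary AS, 889 and 698 in primary CR, 1811 and 1806 in metastatic AS, and 739 and 2270.2 in metastatic CR tumors. Again metastatic CR1 alone lay within the primary range (0.86 ± 0.38, adjusted p = 0.997, edgeR).

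The 2 largest log2 fold changes were those of Rsad2 at 1.23 and Ifit3 at 1.22, and neither passed. By role, the medians were 1.05 for the Ifit proteins, 0.81 for the GTPases, 0.72 for the 2-5A synthetase family and 0.08 for the transcription factors. Within AS tumors the median over the 33 was 0.47, and both metastases lay above both primary tumors for 16 genes (18.6% of all genes). Within CR tumors it was 0.73, but both metastases lay above both primary tumors for only 2, Oas2 and Rsad2 (12.9%). With 1 tumor left out, the median over all tumor types ran from 0.41 without metastatic CR2 to 0.94 without primary AS2. Without metastatic CR1 it was 0.92, with 17 members higher at an unadjusted p under 0.05 (2.07% of all genes) and 0 called by edgeR.

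Whether the phenotype difference of a gene differed between primary and metastatic tumors was tested by the interaction term. No member passed (0 by edgeR and 0 by DESeq2), and 0 members reached an unadjusted p under 0.05 (2.74% of all genes). With DESeq2 1 member reached it, as did 570 of all 18889 genes. The mean of log2(CPM + 1) over the 33 genes was 2.97 and 3.52 in primary AS1 and AS2, 3.76 and 3.62 in metastatic AS1 and AS2, 2.88 and 2.71 in primary CR1 and CR2, and 2.55 and 3.87 in metastatic CR1 and CR2. The lowest and the highest of the 8 values were the 2 metastatic CR tumors. The means were 3.467 ± 0.344 in AS and 3.004 ± 0.594 in CR tumors, and 3.020 ± 0.350 in primary and 3.450 ± 0.607 in metastatic tumors (SD, n = 4). The differences were -0.46 and 0.43. The SD of the 2 tumors of a group was 0.388 in primary AS, 0.095 in metastatic AS, 0.125 in primary CR and 0.933 in metastatic CR. Pooled over the 4 groups it was 0.51, most of which came from the metastatic CR tumors. It is the spread of single tumors and not the error of a difference of means, so it does not test these differences.

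The rest of the interferon pathway was described with 6 lists of 109 genes, of which 97 were tested between phenotypes. In CR tumors 14 of the 97 were lower (14.4%, against 5.29% of all genes) and 0 were higher, and between metastatic and primary tumors 0 of 95 passed (edgeR). The ligands were scarcely detected. Ifnb1 had 7 reads over the 8 tumors, of which 4 were in metastatic CR2, 2 in primary CR1 and 1 in metastatic AS1. Ifna4 and Ifna11 had 0 reads in all tumors, the other interferon alpha and related genes had 1 to 31, Ifnk had 74 and Ifnz had 218. Of these type I interferons 2 were tested between phenotypes, Ifnk and Ifnz, and neither passed. They were at -0.33 ± 0.72 and -1.75 ± 0.66 (log2 fold change of CR over AS, SE). Ifng, interferon gamma, had 11 reads in all.

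Of the receptor subunits, Ifnar1 was at -0.08 ± 0.16 and Ifnar2 at 0.02 ± 0.24 (log2 fold change of CR over AS, SE), and neither passed. Of the receptor kinases and Stats 1 of 11 was lower in CR tumors, Tyk2, at -0.72 ± 0.19 (adjusted p = 0.0448, edgeR). Its normalized counts were 1601 and 1531 in primary AS, 1418 and 1465 in metastatic AS, 1319.7 and 781 in primary CR, and 742 and 836 in metastatic CR tumors, so the phenotypes did not overlap.

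Of 16 genes of nucleic acid sensing, 4 were lower in CR tumors: Nlrc5, a transactivator of MHC class I genes, at -2.18 ± 0.31, Irf8, a factor of myeloid cells, at -1.52 ± 0.25, Irf1, a target of interferon gamma, at -1.03 ± 0.20, and the Toll-like receptor adaptor Myd88 at -1.01 ± 0.19. Irf3 was at -0.35 and did not pass. In metastatic CR2 Nlrc5 had 84 normalized counts and Irf1 1637, against 188 to 419 and 2327 to 3226 in the AS tumors, so here that tumor lay below the AS range. Of 10 negative regulators 1 was lower, the RNA-editing enzyme Adar at -0.55 ± 0.13. Of 8 tested genes of the interferon gamma list 2 were lower, Cd74 at -1.82 ± 0.39 and H2-Aa at -1.998 ± 0.504, both of MHC class II presentation.

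Of 50 other ISGs 6 were lower and 0 higher in CR tumors (5.29% and 4.76% of all genes): Ifitm1, Ifitm2, Shisa5, Uba7, Znfx1 and Ifi27. Ifitm1, which blocks viral entry, had the largest difference, at -5.89 ± 0.37 (adjusted p = 0.000213, edgeR), and Uba7, the enzyme that activates Isg15, was at -1.17 ± 0.27. Over the 50 genes the median log2 fold change was -0.51, and 42 were below 0 (50.0% of all genes). Metastatic CR2 was the highest CR tumor for 34 of the 50 (24.9% of all genes). It exceeded 2 times the mean of the others for 21 (13.3%), with a median ratio of 1.70 (0.927 over all genes). Across the 8 tumors 16 of the 50 had r above 0.8 with the mean of the 33 (32.0%), with a median r of 0.71. Of all 18856 tested genes outside the 33, 1.61% had r above 0.8.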

How the data were processed

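RNA was sequenced from 8 Myc-CaP tumors. The authors depleted ribosomal RNA, prepared stranded libraries, mapped the reads to mm10 (GRCm38) with Bowtie, kept unique matches with at most 2 mismatches, and then counted the reads that fell on each gene. The submitters' processing notes also name TopHat2 2.0 and CASAVA 1.8.2, while the counting tool and annotation are not given in the sources used here. The deposited values are raw counts per gene, and no column was left unmapped.

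The counts were tested with edgeR 4.0.16 in R 4.3.3 (filterByExpr, TMM, quasi-likelihood test, Benjamini-Hochberg adjustment, threshold 0.05). Tumor type was a covariate for phenotype (18889 genes), tumor type alone was tested between metastatic and primary tumors (17104 genes), and the interaction was tested on 4 group means. The SE was taken as the absolute log2 fold change divided by the square root of F. DESeq2 1.42.0, RLE factors, other filters, phenotype or tumor type as covariate or left out, subsets and each tumor left out were alternatives. Tests on simulated counts for the phenotype comparison (18889 genes) recovered 17.9% of the genes changed 2-fold, 62.7% of those changed 4-fold and 83.3% of those changed 8-fold, with 9 false calls. Coordinates and overlaps came from GENCODE M21, and shared read-length windows were found with blastn 2.17.0. No 2 libraries were identical. Depth was 20905806 counts or more per tumor.

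The members and lists were chosen with earlier results of these data known. Values in every tumor are given by a rule: Isg15, Irf7, Stat2, the 6 smallest p-values between phenotypes, the 3 smallest between tumor types, and the 2 highest and 2 lowest levels per length. Rsad2, Tyk2, Nlrc5 and Irf1 were added after their values were seen. Some genes of the lists are not reported here. Of 14 marker lists, neutrophil, dendritic, endothelial, fibroblast, epithelial, lung and seminal vesicle lists held no gene called between phenotypes, the prostate list held Msmb and the skeletal muscle list Tnnt3, both lower in CR tumors. Lung and seminal vesicle sums were at most 33.3 normalized counts.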

Additional observations from a re-analysis of the deposited data

Results flagged for a closer look

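Of 136 groups of 4 tumors examined for the 33 ISGs and their mean level, 10 (7.35%) held a tumor whose gap to its nearest neighbor exceeded Dixon's critical share of the group's range. For the genes, gap and range were taken on log2(normalized count + 1). The normalized counts printed above give other shares, so the number flagged holds for the log2 scale only. Chance flags about 1 in 20 groups, and the genes and the groups share tumors. Among CR tumors, metastatic CR2 was set apart upward for Ddx58 (0.892), Zbp1 (0.855) and Rsad2 (0.867). Among metastatic tumors, metastatic CR1 was set apart downward for Irf7 (0.866), Ifit3 (0.944) and Oas3 (0.860). Among AS tumors, primary AS1 was set apart downward for Ifit2 (0.831) and Parp9 (0.850), and metastatic AS1 upward for Gbp2 (0.933). Among primary tumors, primary AS2 was set apart upward for Parp9 (0.927).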

How the results depend on the processing

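Between phenotypes the number of members called was 3 with RLE factors or a stricter filter and 2 without tumor type. It was 5 with DESeq2, 8 without a filter, 0 in primary or metastatic tumors alone, 14 with DESeq2 without metastatic CR2 (added after seeing the data) and 0 to 7 with 1 tumor left out. Over all genes 1899 were called, 3520 with DESeq2, 3098 without a filter, 56 in primary and 68 in metastatic tumors alone, 2860 with DESeq2 without metastatic CR2, and 399 to 3784 with 1 tumor left out, the lone tumor of its group being assumed to vary like the others. The cause was not tested. Some fold changes that had not passed turned: Gbp3 to -0.21 in primary tumors and to -0.059 without metastatic AS2 and -0.55 (DESeq2 -0.52) without metastatic CR2 (0.39 at most), Xaf1 and Cmpk2 to 0.024 and 0.013 without metastatic CR1 (at lowest -0.48 and -1.62), and Cmpk2 to 0.30 in metastatic tumors. Between metastatic and primary tumors 0 genes were called in every alternative, while Stat2 turned to -0.067 in CR tumors, -0.058 without metastatic AS2 and -0.031 without primary CR1 (0.25 at most), and Parp9 to -0.027 in CR tumors. For the interaction, 0 genes passed with edgeR, 2 with DESeq2 and 217 without a filter, with 0 members each time. The pairing of metastases is not given, so each of the 4 possible pairings was fitted as a replicate block, with 0 members called and a median log2 fold change of 0.50 to 0.55. In the simulated phenotype comparison, where 200 of 18889 genes were changed, most 2-fold changes were not called. Recovery was not simulated for the other comparisons.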
